A study of Mus musculus with 12 samples.

Results

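Under tumour necrosis factor alpha (TNF), expression in Fancc mutant KSL cells was set against that in wild-type KSL cells, with 3 arrays of each out of 12 arrays in the series. These 6 arrays were chosen by their sample titles, and the comparison covered 18193 genes, each represented by its brightest probe set with 1 gene symbol. KSL cells are sorted from mouse bone marrow as c-Kit+Sca-1+Lin-, a fraction that contains the haematopoietic stem cells and early progenitors. They came from wild-type or Fancc-deficient mice aged 2 to 4 months. All groups were cultured for 24 h in RPMI with 10% fetal bovine serum, IL-6 at 20 ng/ml, IL-11 at 10 ng/ml, Flt3 ligand at 50 ng/ml and stem cell factor at 10 ng/ml, and the treated groups also received TNF at 10 ng/ml. The other 6 arrays, 3 wild-type and 3 mutant without TNF, were used to see whether a genotype difference was also present there, and they share with the treated arrays the estimate of spread behind each p. The labels name neither the strain nor the disrupted part of Fancc, and they leave unsaid whether each replicate was a mouse of its own, so the p-values cover only the spread among these cultures, some of which may be technical.

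The product of Fancc belongs to the core complex of the Fanconi anaemia pathway, which ubiquitinates the FANCD2 and FANCI proteins so that DNA crosslinks can be repaired. People and mice without the pathway have a fragile stem cell pool, and Fancc-deficient haematopoietic progenitors are known to be hypersensitive to TNF and interferon gamma. TNF binds its receptors TNFR1 and TNFR2, which recruit adaptors such as TRADD and TRAF2 and release NF-kB from its inhibitors, and in marrow it restrains stem cells and drives myeloid gene expression. The comparison asks how Fancc-deficient progenitors differ from wild-type ones while they respond to this cytokine.

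The values are log2 expression from RMA, and a difference is the mutant mean minus the wild-type mean on that scale. Levels of different genes are not comparable on these arrays. The similar signal of the 6 treated arrays is set by RMA, which gives all arrays the same distribution, and does not check their quality. No library depth applies to arrays, whose number limits the precision. The median 95% interval of a gene's difference was ± 0.27. Pairs of arrays from different genotypes differed by 0.271 to 0.397 (root mean square over genes, 9 pairs), pairs within wild type by 0.313 to 0.363 and pairs within the mutant by 0.262 to 0.345, so the ranges overlapped. The second wild-type array and the second mutant array were each other's nearest array, while the other 4 were nearest to an array of their own group. The Y-linked gene Eif2s3y read 11.25, 11.16 and 3.79 on the wild-type arrays and 10.87, 10.93 and 11.50 on the mutant arrays, and Xist, which is made from the inactive X chromosome, read between 12.2 and 13.1 on all 6. The third wild-type array was therefore the only treated array without clear Y-linked signal. Of the sort marks, Kit (c-Kit) read 10.26 to 10.70. Cd34, which is not part of the gate, read 12.95 to 13.05. No unsorted cells were measured, so these levels do not show the gate.

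With TNF, 1 of 18193 genes passed, which is 0.00550% (limma, Benjamini-Hochberg adjusted p under 0.05). That gene was Fbp1, which was higher in the mutant. Without adjustment, 1018 genes had p under 0.05, of which 345 (1.90% of all genes) were higher in the mutant and 673 (3.70%) were lower. The 3 mutant arrays lay wholly above the wild-type arrays for 765 genes (4.20%) and wholly below them for 1236 genes (6.79%). A total of 258 genes (1.42%) combined an unadjusted p under 0.01 with arrays that did not overlap, and 59 of these were higher and 199 lower in the mutant. Apart from Fbp1, every genotype difference of a gene with TNF below is one that did not pass over all genes in the main fit. When all 45037 probe sets were tested, 2 without a gene name also passed, and they are described near the end. The share of genes with p under 0.05 that were higher was 33.9%, and it became 43.0% after cyclic loess normalisation and 48.1% without the second mutant array.

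Fbp1 encodes fructose-1,6-bisphosphatase, the enzyme that hydrolyses fructose 1,6-bisphosphate in gluconeogenesis and so opposes glycolysis. It read 6.19, 6.54 and 4.56 on the treated wild-type arrays and 10.26, 10.29 and 10.09 on the treated mutant arrays. The groups were far apart, with the wild-type arrays spread more widely than the mutant ones. The difference was 4.45 (21.8-fold, SE 0.42, 3 arrays per group, limma adjusted p = 0.00886). Without TNF the same probe set read 8.71, 7.79 and 8.02 in wild type and 11.20, 10.89 and 10.89 in the mutant, again without overlap. That difference was 2.82 (SE 0.42) and did not pass (limma adjusted p = 0.225). TNF lowered Fbp1 on average over both genotypes, with a log2 change of -1.60 (limma adjusted p = 0.0051), made up of a change of -2.41 in wild type and -0.78 in the mutant. The excess of the genotype difference with TNF over that without it was 1.63 (SE 0.59), with an unadjusted p of 0.019 that did not pass over all genes. Fbp1 is measured by a single probe set. Its call was lost in the fit of the 6 treated arrays alone (limma adjusted p = 0.211), without the first mutant array (0.0871) and without the third mutant array (0.0690), while the difference stayed between 3.85 and 4.84 under all 15 alternatives.

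Fbp1 lies close to Fancc in the mouse genome, and the genes around Fancc were therefore described in their annotation order. On one side the order ran from Aopep, the nearest, through Fbp1 and Fbp2, and on the other it began with Ptch1. Fbp2, the muscle-type isoenzyme of fructose-1,6-bisphosphatase, is the direct neighbour and paralogue of Fbp1. It read 4.88, 4.75 and 4.66 in treated wild type and 4.54, 4.66 and 4.64 in treated mutant cells, a difference of -0.15 (SE 0.12). The 95% interval of ± 0.27 covered 0, so these values give no direction for Fbp2. The large difference of Fbp1 was thus not shared by the 2 paralogues. Their upstream sequences are printed because Fbp1 carries the call and its neighbour does not. Each run gives the 250 bases before the annotated start, 5′ to 3′ on the minus strand of chromosome 13 in RefSeq's GRCm38.p6 assembly, and capitals mark matches to the letters GAGGAA on either strand, the core recognised by the myeloid factor PU.1.
Fbp1, chr13:62888283-62888532: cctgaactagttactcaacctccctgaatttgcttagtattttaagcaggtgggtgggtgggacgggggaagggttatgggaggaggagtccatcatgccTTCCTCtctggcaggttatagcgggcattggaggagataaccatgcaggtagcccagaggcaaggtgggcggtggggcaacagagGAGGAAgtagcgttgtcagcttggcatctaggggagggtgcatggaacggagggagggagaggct
Fbp2, chr13:62858401-62858650: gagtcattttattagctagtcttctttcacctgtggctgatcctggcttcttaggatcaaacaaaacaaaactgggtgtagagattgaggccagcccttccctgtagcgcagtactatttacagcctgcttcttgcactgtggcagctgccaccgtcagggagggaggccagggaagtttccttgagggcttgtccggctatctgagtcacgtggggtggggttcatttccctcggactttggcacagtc
The Fbp1 stretch held 2 matches to GAGGAA, which begin 150 and 65 bases before the start, and the Fbp2 stretch held 0. Of 32851 mouse promoters in the same table, 23.3% held at least 1 match in these 250 bases. The letters TATAAA, the TATA box core present in 12.4% of promoters, were in neither stretch, searched on both strands. These are sequences of the reference, not of the mutant allele, and a match describes letters only.

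Fancc itself was higher, not lower, in the group labelled mutant. Its brightest probe set read 8.40, 8.65 and 8.22 in treated wild type and 8.87, 9.12 and 8.95 in treated mutant cells. All 3 mutant arrays lay above all 3 wild-type arrays, with a difference of 0.56 (SE 0.14) that did not pass (limma adjusted p = 0.450). Its other probe sets differed by 0.19 (SE 0.37) and 0.40 (SE 0.22), and without TNF the brightest differed by 0.68. The labels do not name the disrupted part of Fancc, and where the probe sets lie in the gene was not examined. These values therefore do not check the genotype, and the arrays are called mutant here as labelled. The cause of the higher signal was not tested.

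The neighbours were looked at because of Fbp1. Of the 10 measured genes on each side of Fancc, Aopep and 6720489N17Rik besides Fbp1 met the stricter description of p under 0.01 without overlap. That is 3 of 20 (15%), against 1.42% of all genes, and the 3 include Fbp1, which prompted the look. The predicted gene 6720489N17Rik read 7.41, 7.10 and 7.37 in treated wild type and 6.28, 6.32 and 6.22 in treated mutant cells. It was lower by a difference of -1.02 (SE 0.13), the second smallest p of all genes (limma adjusted p = 0.0739). Its second probe set differed by -1.03, and without TNF the gene differed by -1.18, which passed there (limma adjusted p = 0.0388). That untreated call was lost in the fit of only the 6 untreated arrays and without the first or the third untreated wild-type array, and without the second or the third untreated mutant array. It was also lost with the filter on low values, trended and robust moderation or the sex-linked covariates. Aopep encodes an aminopeptidase of the M1 family. Its brightest probe set read 10.46, 10.38 and 10.43 in wild type and 10.70, 10.66 and 10.78 in the mutant, a difference of 0.29 (SE 0.08). Its other 3 probe sets differed by -0.05, -0.65 and -0.74, so the direction for Aopep depends on the probe set. By their brightest probe sets, the other 17 neighbours lay between -0.26 for Habp4 and 0.42 for Gm3604, with a smallest unadjusted p of 0.108 (limma). The other Habp4 probe sets differed by -0.05 and 0.35, so the direction for Habp4 depends on the probe set. Among these 17 neighbours Ptch1, the Hedgehog receptor, differed by -0.16 (SE 0.09), and Ercc6l2, a DNA repair helicase gene, by -0.12 (SE 0.13).

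**Figure D1:**
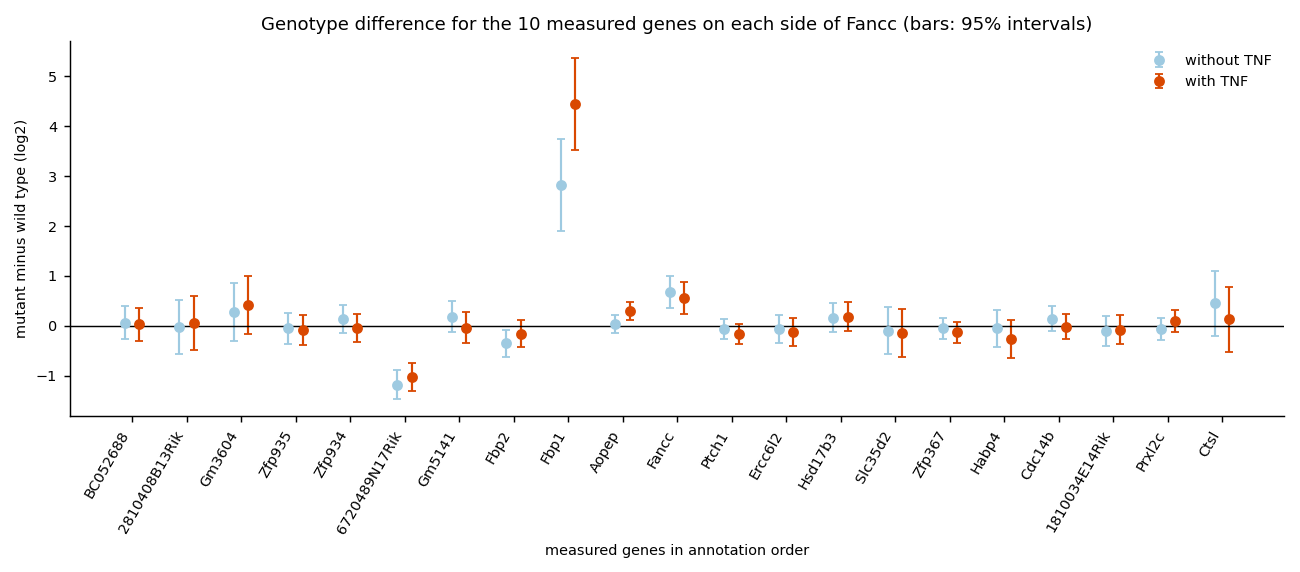
Difference between mutant and wild type (log2, vertical axis) for Fancc and the 10 measured genes on each side of it, in annotation order along the horizontal axis, with TNF in orange and without it in blue; bars are 95% intervals from the fit over 12 arrays. Fbp1 stands at 4.45 with TNF and 2.82 without it and 6720489N17Rik near -1 in both, while the 17 neighbours other than these and Aopep lie between -0.26 and 0.42 with TNF.

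**Figure D2:**
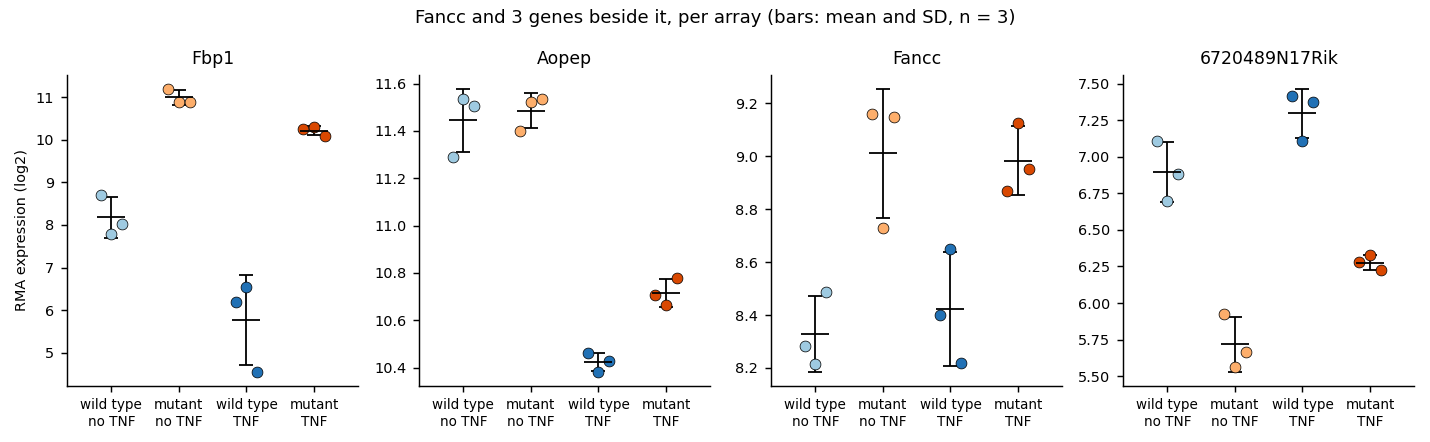
RMA expression (log2, vertical axis) of Fbp1, Aopep, Fancc and 6720489N17Rik on each array, by genotype and treatment on the horizontal axis; points are arrays and bars the mean and SD of 3. In all 4 panels the treated mutant arrays do not overlap the treated wild-type arrays, and only for 6720489N17Rik do they lie below them.

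Among the highest differences after Fbp1, the largest belonged to Ctse, which encodes the aspartic protease cathepsin E of antigen-presenting and blood cells. It read 6.27, 4.81 and 7.33 in treated wild type and 9.43, 8.34 and 9.97 in treated mutant cells, a difference of 3.11 (8.66-fold, SE 0.66, limma adjusted p = 0.267). Without TNF it differed by 2.41, also without overlap. A second probe set for Ctse differed by only 0.27. Cep85, which encodes a centrosomal protein, read 10.32, 10.72 and 11.12 in wild type against 12.49, 12.49 and 12.87 in the mutant, a difference of 1.90 (SE 0.34). Its second probe set went the opposite way, by -1.53 (SE 0.26), and both probe sets kept their sign without TNF (2.02 and -1.59). The 2 Cep85 probe sets therefore give no direction for the gene.

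Ltf, the gene of the secondary-granule protein lactoferrin, read 3.70, 4.92 and 5.07 in wild type and 5.82, 5.61 and 6.53 in the mutant, a difference of 1.42 (SE 0.34). It differed by 0.87 without TNF. Ms4a4c, of a family of four-pass membrane proteins on myeloid and lymphoid cells, differed by 1.27 and by 1.18 on its 2 probe sets. Prdm1, the gene of the transcriptional repressor BLIMP-1, read 5.38, 5.10 and 5.14 in wild type and 6.28, 5.56 and 6.77 in the mutant, a difference of 1.00 (SE 0.31). Akap12, a scaffold for protein kinases A and C, differed by 1.15 (SE 0.25), and the T and NK cell surface gene Cd7 by 1.06 (SE 0.32). H2-DMb2, a chaperone of peptide loading on MHC class II, differed by 1.07 (SE 0.32), and its other 2 probe sets differed by 1.11 and 0.62. The remaining named genes on this side were the pancreatic-type protease gene Ctrl (1.24), Tstd3 (1.04) and the potassium channel gene Kcna4 (0.99, against 0.06 on its other probe set).

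On the lower side the largest difference was that of Dcaf12l1, which read 7.25, 6.90 and 7.33 in wild type and 5.56, 5.12 and 5.17 in the mutant. It was -1.87 (SE 0.34, limma adjusted p = 0.217), and its second probe set differed by -0.15. Slc16a12, a monocarboxylate transporter gene, read 7.53, 7.54 and 8.17 in wild type and 5.83, 6.17 and 5.69 in the mutant, a difference of -1.85 (SE 0.33). Aldh1a1, the retinaldehyde dehydrogenase whose activity is used to enrich stem cells in several tissues, read 9.59, 8.62 and 8.94 in wild type and 7.68, 7.09 and 7.02 in the mutant. Its difference was -1.78 (SE 0.52), against -0.52 without TNF, and TNF raised the gene by 2.79 on average over genotype (limma adjusted p = 0.000629). The mean of treated mutant cells thus stood between those of untreated cells and of treated wild-type cells for Aldh1a1.

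The calcium-activated chloride channel gene Ano1 behaved likewise in its values, with 8.66, 8.09 and 9.23 in treated wild type and 7.41, 6.65 and 6.65 in treated mutant cells, after a TNF-related rise of 2.24 on average. Nav3, a microtubule-associated neuron navigator gene, read 6.59, 6.50 and 6.60 in wild type and 4.21, 5.74 and 5.06 in the mutant, a difference of -1.56 (SE 0.29), while without TNF it read 3.22 to 3.69 on all 6 arrays. Its excess over the untreated difference was -1.76, with an unadjusted p of 0.0014 (limma) that did not pass. The untreated values of Nav3 lie close to the array floor, which compresses differences, so the untreated side of this excess is uncertain. Tm4sf1, a tetraspanin-like membrane protein gene, read 6.68, 6.45 and 7.04 in wild type and 5.22, 4.87 and 5.04 in the mutant. Its difference of -1.68 (SE 0.33) stood against 0.33 without TNF, and its excess of -2.01 had the smallest unadjusted p of that contrast among the 24 genes (0.0012), which did not pass. For Ano1, Nav3 and Tm4sf1 the other probe sets differed by between -0.29 and -0.08.

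Wwtr1, the Hippo pathway coactivator TAZ, differed by -1.67 (SE 0.36), with values on the mutant arrays of 3.40, 3.35 and 3.34, close to the array floor, which compresses fold changes. Its other probe sets differed by -0.0058 and -0.10, so the difference for Wwtr1 rests on 1 probe set. Cadps2, a gene of dense-core vesicle release, differed by -1.65 (SE 0.28). Myh10, the non-muscle myosin IIB heavy chain, differed by -1.43 (SE 0.41) on 1 probe set and by 0.01 on the other. The remaining named genes on this side were the scramblase family gene Plscr2 (-1.61), the vesicular polyamine transporter gene Slc18b1 (-1.48) and the intraflagellar transport gene Ttc30b (-1.37).

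**Figure D3:**
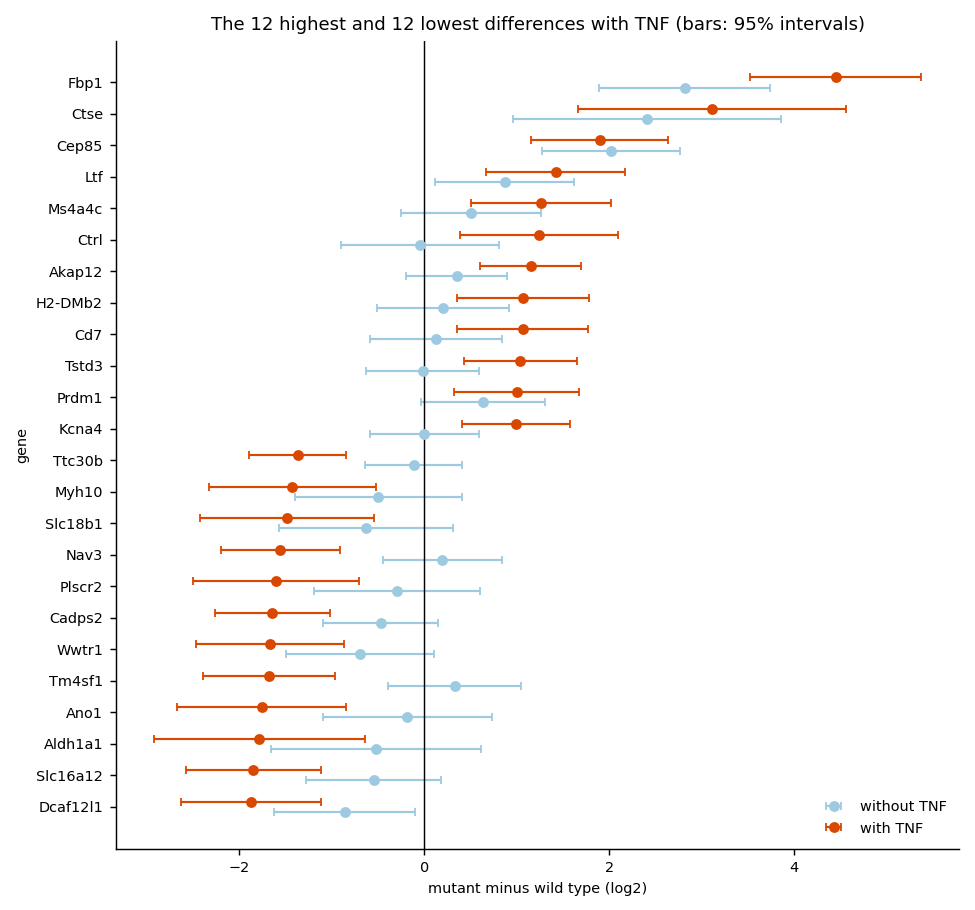
Difference between mutant and wild type (log2, horizontal axis) for the 12 highest and 12 lowest genes with TNF, listed on the vertical axis, with TNF in orange and without it in blue; bars are 95% intervals. The genes were chosen by the orange values; 20 of 24 have the same sign without TNF, 5 of 24 reach an unadjusted p under 0.05 there, and only Fbp1 passed over all genes with TNF.

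The untreated arrays do not enter the treated means or the overlap of the treated arrays, but they share the estimate of spread from which p was computed, so the choice of these genes was not wholly free of them. Of the 59 genes that were higher in the mutant with TNF (p under 0.01, no overlap), 39 were also higher without it, and of the 199 lower genes 165 were also lower. Over all 18193 genes the sign was the same for 60.6%, and the correlation of the differences across genes was 0.34 (Pearson) and 0.29 (Spearman), genes not being independent replicates. The picked genes were smaller in size without TNF, with a median absolute difference of 0.16 against 0.61 with it, as a choice by size on the treated arrays favours. Without TNF, 749 genes (4.12%) had an unadjusted p under 0.05 and 1 passed, 6720489N17Rik. For the difference of the genotype effects with and without TNF, 527 genes (2.90%) had an unadjusted p under 0.05 and 0 passed (limma), and the median 95% interval of a gene was ± 0.38. No gene is therefore shown in this fit to have a genotype difference that depends on TNF.

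The genes lower in the mutant included many that TNF raises. Averaged over genotype, a contrast that does not use the genotype difference, TNF raised 1057 genes and lowered 1150 (limma adjusted p under 0.05). Among the 1057 raised genes, 11.4% were lower and 3.41% higher in treated mutant cells at an unadjusted p under 0.05, against 3.70% and 1.90% of all genes. Among the 1150 lowered genes, 3.91% were lower and 5.65% higher. The median difference was -0.05 for the raised genes and 0.015 for the lowered genes, against -0.0075 for all genes. Of the 199 picked lower genes 52 (26.1%) were raised by TNF and 15 (7.54%) were lowered. Of the 59 picked higher genes 12 (20.3%) were lowered and 8 (13.6%) were raised. Over all genes 5.81% were raised and 6.32% lowered. The picks and the TNF calls share the estimate of spread for each gene, so these shares are not free of it. The median genotype difference of the 1057 raised genes without TNF was -0.04. Ltf, Ms4a4c, Tstd3 and Fbp1 are examples of genes that TNF lowered and that were higher in treated mutant cells, and Aldh1a1, Ano1, Nav3 and Plscr2 of the reverse. Other named genes did not show this opposition. Akap12, H2-DMb2, Cd7, Prdm1 and Kcna4 were raised by TNF and were also higher in treated mutant cells.

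Gene lists for the pathways and cell types of this culture are described below by their counts and medians, beside the same values over all genes: 1.90% higher and 3.70% lower at an unadjusted p under 0.05, and a median of -0.0075. Over all genes the mutant arrays lay wholly above the wild-type arrays for 4.20% and wholly below for 6.79%. In the sorted bulk cells, fewer cells of a type and less RNA per cell cannot be told apart. No list member passed over all genes except Fbp1.

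Among the 25 lists other than the sex-linked one, granulocyte genes showed the highest median, 0.45 over 19 measured genes, with 5 higher and 1 lower at p under 0.05. The highest differences were those of secondary-granule and alarmin genes. S100a9, a subunit of the alarmin calprotectin, read 5.47, 10.21 and 11.08 in treated wild type and 11.72, 11.10 and 12.26 in treated mutant cells. Its difference was 2.77 (SE 1.09), with the first wild-type array far below the others. Its partner S100a8 read 9.12, 9.77 and 10.93 in wild type and 11.60, 10.73 and 12.09 in the mutant, a difference of 1.54 (SE 0.42). Ngp, neutrophilic granule protein, read 5.04, 5.99 and 7.92 in wild type and 8.87, 7.66 and 8.996 in the mutant. Its difference was 2.19 (SE 0.60), and the cathelicidin gene Camp differed by 2.13 (SE 0.64). For S100a8, Ngp and Camp the second mutant array lay below the third wild-type array, so the groups overlapped. The primary-granule genes Elane, Mpo and Ctsg differed by 0.45 (SE 0.77), -0.28 (SE 0.31) and 0.24 (SE 0.29). Csf3r, the receptor for G-CSF, differed by -0.39 (SE 0.17), opposite to the granule genes.

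The mean level of the granulocyte list was 7.71, 7.77 and 8.41 on the treated wild-type arrays and 9.01, 7.94 and 9.14 on the treated mutant arrays. The second mutant array thus stood with the wild-type arrays. Without it the median of the list was 1.22, with 11 of 19 members higher at p under 0.05, and without the third mutant array it was 0.14. It was 0.16 without the second and 0.22 without the third wild-type array, 0.20 without the first mutant array, and 0.23 with Xist and Eif2s3y levels as covariates. Without TNF the median was 0.32, with 1 of 19 higher and 0 lower. The median TNF change of the list, averaged over genotype, was -1.22.

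Monocyte, macrophage and dendritic genes had a median of 0.43 over 23 genes, with 5 higher and 0 lower at p under 0.05. Beside Ctse, whose second probe set differed by only 0.27, these were Itgax, Mpeg1, Siglech and Irf8. Ctse is also among the highest differences of this comparison. The list was chosen with earlier results of these data known, so its count is not independent of them. Itgax, the CD11c integrin of dendritic cells, read 8.27, 8.65 and 8.59 in wild type and 9.16, 9.04 and 9.47 in the mutant, a difference of 0.72 (SE 0.19), against 0.10 without TNF. Mpeg1, the pore-forming perforin-2 of macrophages, read 10.84, 10.78 and 10.93 in wild type and 11.46, 11.08 and 11.96 in the mutant, a difference of 0.65 (SE 0.17). Siglech, of plasmacytoid dendritic cells, differed by 0.77 (SE 0.26), and Irf8, the transcription factor of monocyte and dendritic fate, by 0.62 (SE 0.22). Adgre1, a macrophage marker, differed by 0.74 (SE 0.57), and Cd14, the lipopolysaccharide coreceptor, by 1.15 (SE 0.58). The mean of the list was 8.03, 7.88 and 8.08 on the wild-type arrays and 8.52, 8.06 and 8.98 on the mutant arrays, and the second mutant array again lay within the wild-type range. The median of the list became 0.59 without the second mutant array, with 11 of 23 higher, and 0.14 without the third, with 3 higher, and it was 0.28 with Xist and Eif2s3y levels as covariates. Without TNF it was 0.10.

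MHC class II presentation genes had a median of 0.36 over 11 genes, with 4 higher and 0 lower at p under 0.05. For 5 the mutant arrays lay wholly above the wild-type arrays, as for 4.20% of all genes. H2-Aa, a class II alpha chain, read 10.60, 11.45 and 11.14 in wild type and 11.65, 11.57 and 11.91 in the mutant. Its difference was 0.65 (SE 0.22). H2-Eb1, a beta chain, differed by 0.79 (SE 0.30), and H2-DMa, the partner of the H2-DMb chains, by 0.36 (SE 0.12). Ciita, the class II transactivator, differed by 0.43 (SE 0.34), and the invariant chain gene Cd74 by 0.30 (SE 0.27). H2-Oa and H2-Ob, which restrain H2-DM, differed by -0.20 and -0.01. The first wild-type array was the lowest in the mean of the list, at 9.34 against 10.06 and 9.93 on the other wild-type arrays and 10.02, 10.18 and 10.34 on the mutant arrays. Without that array the median was 0.21, and 2 genes were higher at p under 0.05 without it, as without the third mutant array. The median TNF change of the list, averaged over genotype, was 1.50, and without TNF the genotype median was 0.23.

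The SLAM family, receptors used to divide stem cells from progenitors, had a median of 0.41 over 9 genes, with 3 higher and 0 lower at p under 0.05. Slamf7, an activating receptor of NK and plasma cells, read 5.01, 4.79 and 4.96 in wild type and 5.33, 5.48 and 5.79 in the mutant, a difference of 0.61 (SE 0.11), against -0.07 without TNF. Its excess over the untreated difference had an unadjusted p of 0.0015 and did not pass. Cd48, which marks progenitors beyond the stem cell, read 11.88, 12.40 and 12.13 in wild type and 12.47, 12.45 and 12.59 in the mutant, a difference of 0.37 (SE 0.17). Slamf1, the CD150 of stem cells, differed by 0.41 (SE 0.22) at values of 3.37 to 4.04, near the floor. Without the first wild-type array the median was 0.24, and without the third mutant array only 1 gene was higher at p under 0.05.

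**Figure D4:**
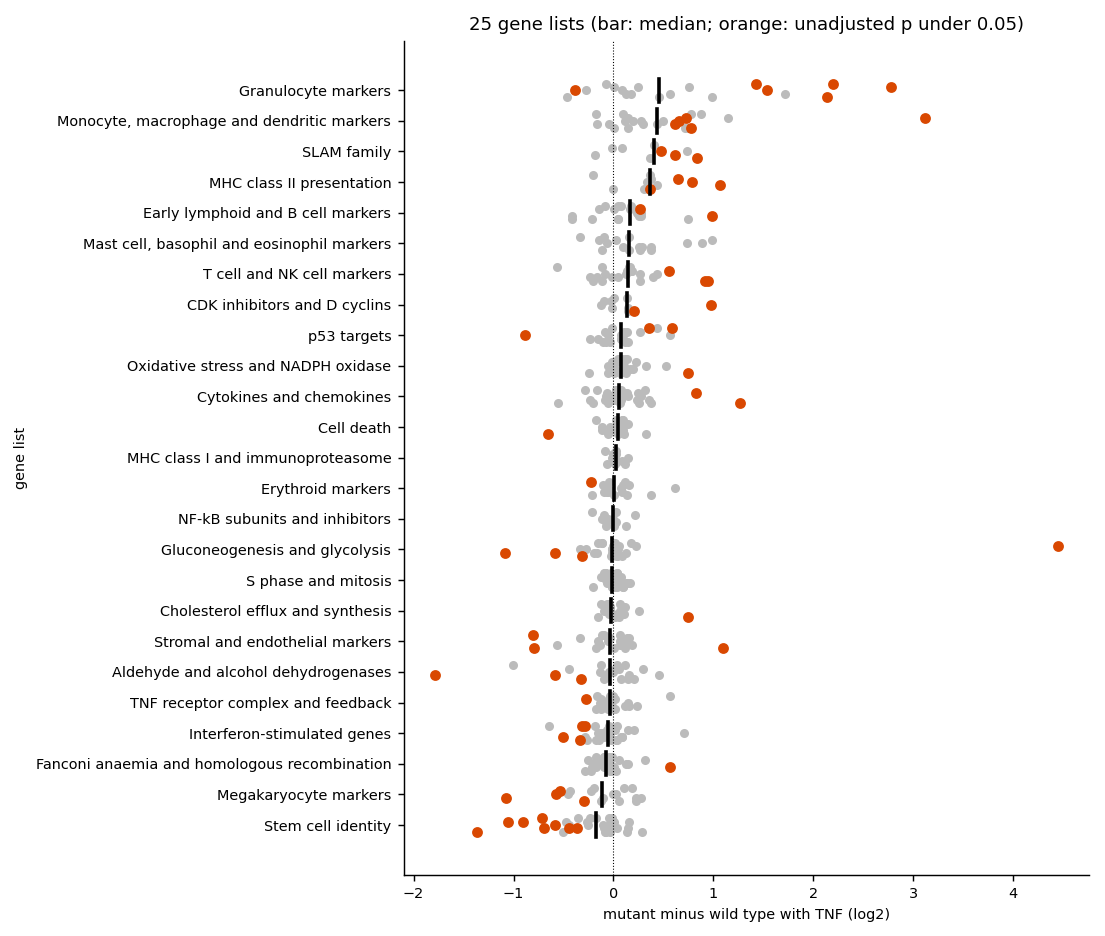
Difference between mutant and wild type with TNF (log2, horizontal axis) for each measured member of 25 gene lists on the vertical axis, ordered by their medians (black bars); orange points have an unadjusted p under 0.05 and grey points do not. Granulocyte genes have the highest median, 0.45, and stem cell identity genes the lowest, -0.17, and Fbp1 is the single point beyond 4.

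Among the same 25 lists, stem cell identity genes had the lowest median, -0.17 over 31 genes. At p under 0.05, 8 were lower and 0 higher. For 11 the mutant arrays lay wholly below the wild-type arrays, with 1 wholly above, against 6.79% and 4.20% of all genes. Hoxb5, a homeobox gene of long-term stem cells, read 6.78, 6.07 and 5.96 in wild type and 4.88, 5.19 and 5.58 in the mutant. Its difference was -1.05 (SE 0.25). Fgd5, a guanine nucleotide exchange factor gene used to report stem cells, read 6.42, 5.78 and 6.96 in wild type and 4.70, 5.51 and 4.86 in the mutant. Its difference was -1.36 (SE 0.48). Mecom, which encodes the stem cell factor EVI1, read 11.33, 11.26 and 11.35 in wild type and 10.49, 11.11 and 10.25 in the mutant, a difference of -0.70 (SE 0.22). Mycn differed by -0.90 (SE 0.27), Ctnnal1, which encodes alpha-catulin, by -0.44 (SE 0.12) and the efflux pump gene Abcg2 by -0.37 (SE 0.11). The HOX cofactor gene Meis1 differed by -0.58 (SE 0.23) and the angiopoietin receptor gene Tek by -0.72 (SE 0.30). Under the 15 alternatives the difference ranged from -1.27 to -0.28 for Mycn, from -0.94 to -0.27 for Mecom and from -0.76 to -0.28 for Meis1. Kit, the stem cell factor receptor by which the cells were sorted, differed by -0.24 (SE 0.13), without overlap. Cd34, Flt3 and Procr differed by -0.05, 0.03 and 0.14, and none of them had a p under 0.05.

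The mean of the stem cell list was 9.48, 9.35 and 9.47 on the treated wild-type arrays and 9.16, 9.23 and 9.08 on the treated mutant arrays, which did not overlap. Without TNF the median was -0.21, with only 3 of 31 genes above 0 and 4 lower at p under 0.05. With TNF, 12 were lower in the fit of only the 6 treated arrays and 5 without the third wild-type array. Their median was -0.09 without the third wild-type array, the one with no clear Y-linked signal, and -0.07 with Xist and Eif2s3y levels as covariates. The part of sex-linked signal and of the granulocyte and monocyte genes in these differences was not tested. Megakaryocyte genes, a lineage close to the stem cell, had a median of -0.11 over 18 genes, with 4 lower and 0 higher. They were the P-selectin gene Selp (-0.54), Vwf (-0.57), the platelet beta-tubulin gene Tubb1 (-1.08) and Nfe2 (-0.30). Only 1 megakaryocyte gene was lower without the third wild-type array, without the first mutant array or with the sex-linked covariates, and 2 were in the fit of only the 6 treated arrays or with the filter on low values. The median of the list was -0.04 without the first wild-type array, -0.18 without the third, -0.20 without the third mutant array and -0.26 with the filter.

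**Figure D5:**
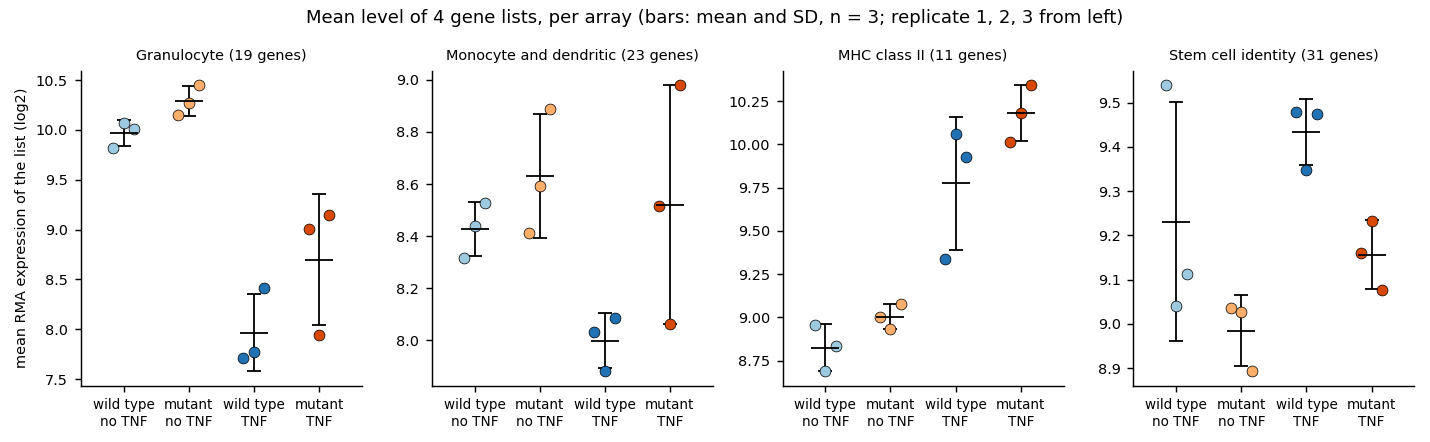
Mean RMA expression (log2, vertical axis) of granulocyte, monocyte and dendritic, MHC class II and stem cell identity genes on each array, by genotype and treatment on the horizontal axis; points are arrays, with replicates 1 to 3 from left to right, and bars the mean and SD of 3. The second treated mutant array lies among the wild-type arrays for granulocyte and monocyte genes, at 7.94 and 8.06, and the treated groups do not overlap for stem cell genes.

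Genes of the TNF pathway itself held few differences past an unadjusted p under 0.05. Of 13 NF-kB subunits and inhibitors 0 were higher or lower at p under 0.05, with a median of -0.01 and a range from -0.22 to 0.22. Nfkbia, the inhibitor IkB-alpha, read 13.58, 13.52 and 13.55 in wild type and 13.45, 13.49 and 13.48 in the mutant, a difference of -0.08 (SE 0.09), after a TNF-related rise of 1.51 on average over genotype. Relb, an NF-kB subunit gene that TNF raised by 3.35, differed by -0.11 (SE 0.12). Of 22 genes of the TNF receptor complex and its feedback 1 was lower and 0 higher, with a median of -0.04. That gene was Tradd, the adaptor of TNFR1. It read 11.56, 11.49 and 11.60 in wild type and 11.23, 11.25 and 11.34 in the mutant, a difference of -0.28 (SE 0.09). Under the 15 alternatives the difference for Tradd ranged from -0.31 to -0.045. The receptors Tnfrsf1a and Tnfrsf1b differed by 0.01 and 0.23, the deubiquitinase gene Tnfaip3 (A20) by -0.04, and Tnf itself by -0.02. Traf1 differed by 0.57 (SE 0.31) on its brightest probe set and by -0.07 as the mean of its probe sets.

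Among interferon-stimulated genes 4 of 32 were lower and 0 higher at p under 0.05, with a median of -0.05. The mutant arrays lay wholly below for 7 and wholly above for 0, against 6.79% and 4.20% of all genes. The 4 genes lower at p under 0.05 were the ISG15-conjugating enzyme gene Ube2l6 (-0.31), Irf7 (-0.34), Ifit3 (-0.29) and Ddx58 (-0.50), which encodes the RNA sensor RIG-I. Cytokines and chemokines had a median of 0.05 over 33 genes, with 2 higher, the chemokine gene Ccl3 (0.83, SE 0.27) and the interleukin 1 receptor antagonist gene Il1rn (1.26), and 0 lower. Il1rn passed only without the second mutant array (limma adjusted p = 0.0449). MHC class I and immunoproteasome genes had a median of 0.02 over 12 genes, with 0 at p under 0.05.

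Among genes of the Fanconi pathway, Fancc was the only one past an unadjusted p under 0.05. Over 27 Fanconi anaemia and homologous recombination genes the median was -0.08, with 1 higher (Fancc) and 0 lower. Fanca and Fancg, of the core complex, differed by -0.05 and -0.03, Fancd2, the substrate of the complex, by 0.14 (SE 0.14), Brca2 by -0.17 (SE 0.11) and the damage kinase gene Atm by -0.29 (SE 0.14). The p53 targets had a median of 0.08 over 23 genes, with 2 higher and 1 lower. Cdkn1a, which encodes the cell cycle inhibitor p21, read 10.33, 10.09 and 10.59 in wild type and 10.82, 10.38 and 10.86 in the mutant, a difference of 0.35 (SE 0.15), and Mdm2 differed by 0.07. Plk2 was higher by 0.59 and Perp lower by -0.89. Of 32 S phase and mitosis genes 0 had a p under 0.05, with a median of -0.01 and a median 95% interval of ± 0.19. Among CDK inhibitors and D cyclins 2 of 11 were higher, Cdkn2b (0.97, SE 0.36), which encodes p15, and Ccnd1 (0.20), and 0 lower. Of 23 cell death genes 1 was lower, Casp12 (-0.65), and 0 higher.

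Metabolic genes differed in single members. In the list for gluconeogenesis and glycolysis the median was -0.01 over 28 genes, with Fbp1 as the 1 higher gene and 3 lower. The lower ones were Aldoc, the brain-type aldolase (-0.59, SE 0.15), the lactate dehydrogenase B gene Ldhb (-1.09, SE 0.40) and the muscle-type phosphofructokinase gene Pfkm (-0.31, SE 0.12). Ldhb read 10.42, 10.34 and 10.95 in wild type and 9.26, 9.79 and 9.40 in the mutant, without overlap. Other gluconeogenic genes differed by 0.03 for G6pc (SE 0.11), -0.02 for Pck1 (SE 0.07) and 0.06 for Pck2 (SE 0.08). The pyruvate kinase gene Pkm differed by 0.02 (SE 0.07).

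Aldehydes are among the sources of the crosslinks that the Fanconi pathway repairs. Of 23 aldehyde and alcohol dehydrogenase genes 3 were lower and 0 higher, with a median of -0.03. Beside Aldh1a1 they were the folate enzyme gene Aldh1l1 and Aldh7a1 (-0.32, SE 0.10). Aldh1l1 read 7.12, 7.28 and 7.37 in wild type and 6.84, 6.63 and 6.53 in the mutant (difference -0.59, SE 0.14). Over the alternatives Aldh1l1 ranged from -0.67 to -0.27 and Aldh7a1 from -0.43 to -0.08. Aldh1a7, a close copy of Aldh1a1 whose probes may share signal with it, differed by -1.01 (SE 0.46). The mitochondrial Aldh2 and the formaldehyde-clearing Adh5 differed by 0.01 (SE 0.07) and -0.04 (SE 0.07). Oxidative stress and NADPH oxidase genes had a median of 0.07 over 27 genes, with only Hmox1 higher (0.75, SE 0.29) and 0 lower. Abca1, the cholesterol exporter gene, was the 1 higher gene of 20 in cholesterol efflux and synthesis. It read 5.59, 6.12 and 6.17 in wild type and 6.62, 6.63 and 6.87 in the mutant, a difference of 0.75 (SE 0.19), against -0.45 without TNF. Over the alternatives the difference with TNF for Abca1 ranged from 0.25 to 0.85.

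Markers of the other lineages were mixed. Early lymphoid and B cell genes had a median of 0.16 over 21 genes, with Blnk (0.99) and Cd79b (0.26) higher and 0 lower. Without the second mutant array that median was -0.00053, with 10 of 21 genes above 0 and 2 lower at p under 0.05. T and NK cell genes had a median of 0.15 over 22, with Bcl11b (0.94), Gzmb (0.55) and Klrd1 (0.92) higher and 0 lower. Mast cell, basophil and eosinophil genes had a median of 0.15 over 17 with 0 at p under 0.05, and the median was -0.04 without the second wild-type array. Erythroid genes had a median of 0.003 over 17, with only Car2 lower (-0.23). Of 21 stromal and endothelial genes 1 was higher, Acta2 (1.10), and 2 lower, Emcn (-0.80) and Esam (-0.80), surface genes that stem cells also express. Emcn read 7.02, 7.25 and 7.41 in wild type and 6.32, 6.56 and 6.39 in the mutant, against a difference of 0.30 without TNF.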

How the data were processed

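Total RNA, 5 to 15 ng per sample, was amplified, labelled and hybridised to single-colour Affymetrix mouse arrays, per the labels' protocols. The authors deposited log2 RMA values for each probe set, per the submitters' processing notes; its version was not given in the sources used here, and base 2 was inferred from the range (2.14 to 14.94). Because RMA gives all arrays the same distribution, a shift common to all genes would be hidden. Titles gave the groups and replicate numbers. Of 45101 probe sets, 64 controls were left out, 34945 had 1 gene symbol in the platform annotation, 932 several and 9160 none. Gene order came from RefSeq's GRCm38.p6 annotation.

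The main test was limma 3.58.1 (R 4.3.3) on all 12 arrays, with a mean for each of the 4 groups, empirical Bayes moderation and Benjamini-Hochberg adjustment over 18193 genes (2-sided, adjusted p under 0.05). The fit was tested on simulated data. Named genes were Fancc, all calls, the 12 highest and 12 lowest differences with unadjusted p under 0.01 and no overlap (predicted genes skipped), the 10 measured genes on each side of Fancc, and for each list its members with the smallest p or those that define it by role. The members, this rule and 26 gene lists (602 genes, 539 measured) were chosen with earlier results of these data known. Alternatives were a replicate block, a filter on low values (9444 genes left, above the overall median on 3 or more arrays), averaging the probe sets of a gene, array weights (statmod 1.5.0), median centring, trended and robust moderation, cyclic loess, only the groups compared, Xist and Eif2s3y covariates, a 2-fold minimum, all 45037 probe sets, and leaving out each array. Same-numbered treated arrays correlated in their deviations by 0.22, 0.23 and 0.05, and untreated ones by 0.16, -0.16 and 0.28. Arrays of unlike number were not compared in this way, so these values cannot decide whether the numbers pair arrays. The main fit did not pair them, because the labels do not say that a number marks a shared mouse or batch.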

Additional observations from a re-analysis of the deposited data

Results flagged for a closer look

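The comparison by gene uses only probe sets with 1 gene symbol, and 2 probe sets with no gene name here stood apart between the genotypes when all 45037 probe sets were tested. Probe set 1431213_a_at read 8.31, 9.22 and 9.07 on the treated wild-type arrays and 11.72, 12.63 and 12.75 on the treated mutant arrays, a difference of 3.50 (SE 0.29, limma adjusted p = 0.00456). Probe set 1455869_at read 9.47, 10.09 and 10.48 in treated wild type and 12.48, 13.15 and 13.14 in treated mutant cells, a difference of 2.91 (SE 0.25, limma adjusted p = 0.00456). Both also passed without TNF, by 3.06 and 2.39. The gene they measure is not identified here.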

How the results depend on the processing

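The count of genes called with TNF was 1 in the main fit, 3 with the replicate block, 9 with array weights, 3 with the mean of probe sets, 0 in the fit of only the 6 treated arrays, 3 over all probe sets and 0 to 7 when each array was left out. It was 0 without the first or the third mutant array, 7 without the second and 2 without the third wild-type array. Without TNF the count was 1, and it was 0 with the filter on low values, with trended and robust moderation and with the sex-linked covariates, 2 with array weights and 0 to 3 when each array was left out. The call of 6720489N17Rik without TNF was lost in these 3 settings, without the third wild-type array, without the second or the third mutant array, and where another gene was called in its place (Elobl in the fit of only the 6 untreated arrays, Cep85 without the first wild-type array). The interaction count was 0 and became 1 (Tm4sf1) only without the first untreated wild-type array (range 0 to 1). The replicate block changed no other call than 6720489N17Rik and Mpzl1, which it added with TNF. With it the genes at an unadjusted p under 0.05 with TNF went from 1018 to 1194 (limma). Whether the numbers pair arrays is not known from the labels.

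Fbp1 was called in 12 of 15 alternatives. The medians of 10 of 25 lists, the early lymphoid and mast cell lists among them, changed sign under at least 1 alternative. Of 99 named genes, 3 turned direction, all with the mean of probe sets: Aopep to -0.29, Ptch1 to 0.038 and Traf1 to -0.073. The causes of these shifts were not tested, other than that fewer arrays enter some fits. Genes near the floor of the arrays have compressed differences.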
